A study of Mus musculus with 8 samples.

Results

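The response to nerve cut in mice whose Schwann cells lack the transcription factor c-Jun was read as the difference between cut and uncut nerve on 4 of the 8 arrays of the series. These arrays were chosen by their sample titles: 2 hold cut nerve and 2 hold uncut nerve of c-Jun knockout mice, called mutant here. The other 4 hold cut and uncut nerve of mice labelled WT, called control here, and serve to test where the mutant response differed. In adult mice the sciatic nerve was transected at the sciatic notch, and 7 days later 10 mm of the nerve beyond the cut was collected with the intact nerve of the opposite leg. Each array held RNA of a pool of nerves from 4 or 6 mice, and each group had 2 independent pools. The labels name neither the Jun allele, the Cre line, the strain nor the sex. From the published study it is known that the deletion is limited to Schwann cells, so the other cells of the segment keep the gene. The labels name the material as Schwann cell and, in one field, schwannoma, but the RNA is of the whole segment with all its cell types.

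When a peripheral nerve is cut, the axons beyond the cut break down and the Schwann cells that had wrapped them switch off the myelin program, divide and take on a repair state that supports regrowing axons. Macrophages enter and clear myelin debris, and fibroblasts, perineurial cells and blood vessels of the nerve are remodelled. c-Jun, a member of the AP-1 family of DNA-binding factors, is known as a driver of the repair state and as an antagonist of myelin genes. The question put to the data is which of these events are seen when Schwann cells cannot make it.

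The arrays carried 45101 probe sets, of which 24220 passed the signal filter, and the analysis covers 12093 genes, each read by 1 probe set. Values are log2 expression, so a difference of 1 is 2-fold. Array medians lay between 6.59 and 6.65. The replicate arrays correlated across genes with r = 0.984 in mutant cut nerve and 0.985 in mutant uncut nerve, and 106 and 107 genes differed at least 2-fold between the replicates of these groups. Sox10, the lineage factor of Schwann cells, stood at 10.75 and 11.30 in mutant uncut nerve and at 10.90 and 10.77 in mutant cut nerve. Defining markers of other cells were also well measured. The mean level of 25 macrophage markers was 8.59 to 8.83 in mutant uncut and 10.00 to 10.18 in mutant cut nerve, and that of 22 endothelial and blood-nerve barrier markers was 9.51 to 9.58 and 8.86 to 8.91.

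The targeted gene, Jun, stood at 9.62 and 9.59 in mutant uncut nerve and at 10.39 and 10.80 in mutant cut nerve, and at 9.58 and 9.70 in control uncut and 11.88 and 11.96 in control cut nerve. The cut arrays lay above the uncut arrays in both genotypes, and the mutant cut arrays lay below the control cut arrays. Jun rose in the mutant by 0.99 (SE 0.14, limma, Benjamini-Hochberg adjusted p = 0.0015) against 2.28 in control. The difference between the responses was -1.29 (95% interval -1.75 to -0.82), which did not pass the adjustment over all genes (adjusted p = 0.073). All intervals below are of this kind, for the gene alone and not adjusted over genes. Whether the probe set lies in the deleted stretch was not tested, and transcript of cells that keep the gene cannot be told apart from transcript of Schwann cells.

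Most of the injury response was present in the mutant. A gene is said to have risen or fallen where limma gave an adjusted p under 0.05 over all genes. By this rule 2192 genes rose (18.1% of those tested) and 2156 fell (17.8%), 36% in all, and 727 rose (6.01%) and 643 fell (5.32%) at least 2-fold. In control nerve 2759 rose (22.8%) and 2118 fell (17.5%). Of the 830 genes that rose at least 2-fold in control nerve 787 rose in the mutant (94.8%) and 43 did not pass. Of the 681 that fell at least 2-fold in control 652 fell in the mutant (95.7%), 28 did not pass and 1 rose. The median change of these genes was 1.60 in control and 1.49 in the mutant for the risers, and -1.49 and -1.39 for the fallers. Without mutant cut replicate 2 or mutant uncut replicate 2 the total in the mutant fell to 2734 and 2876 genes, of which 2666 and 2746 were also called, in the same direction, with all arrays.

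The test of the difference between the responses called 20 genes (0.165%). Of these 8 were higher in the mutant (0.0662%) and 12 lower (0.0992%). For 10787 of the 12093 genes the 95% interval of the difference lay within 2-fold in either direction. Among the 727 genes that rose at least 2-fold in the mutant the interval lay within 2-fold for 422, the difference was called for 5, and for the other 300 neither held. Among the 643 fallers these numbers were 419, 3 and 221. The typical interval of such genes reached 0.60 (risers) and 0.57 (fallers) to either side, so moderate differences in size between the genotypes were not detectable with 2 pools a group.

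**Figure D1:**
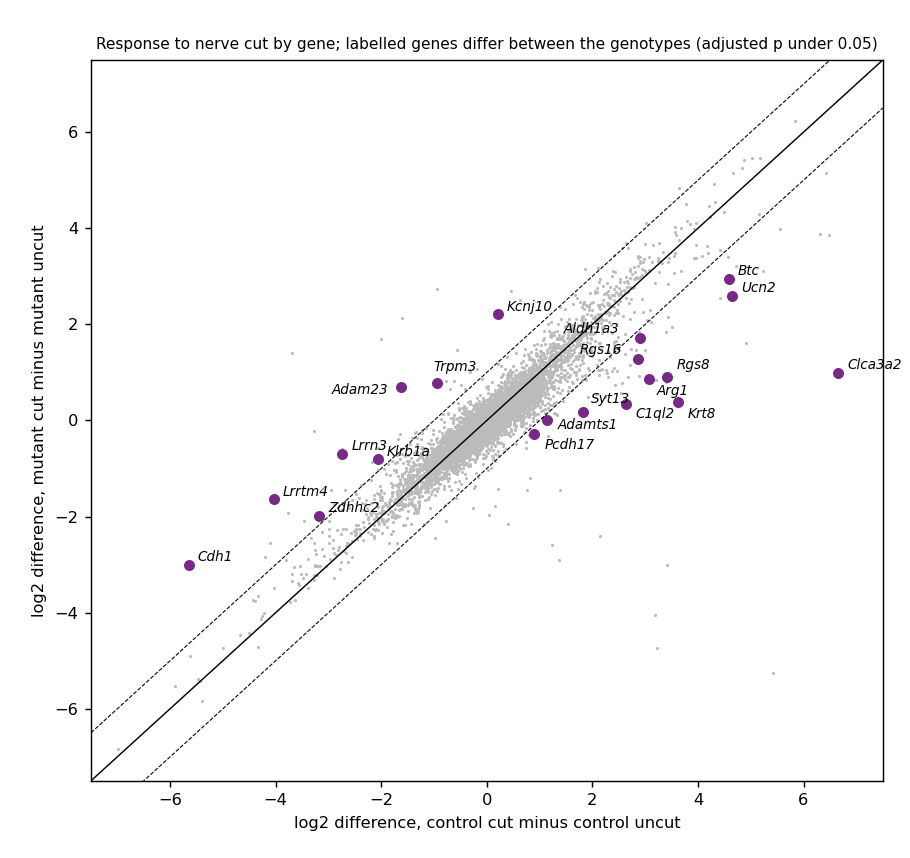
Response to nerve cut of each of the 12093 genes (points), as log2 difference between cut and uncut nerve, in control mice (horizontal axis) and in c-Jun mutant mice (vertical axis). The solid line marks equal responses and the dashed lines a 2-fold difference. Most points lie near the solid line, and the 20 genes whose difference passed limma's test are drawn larger and named.

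The genes of the myelin sheath fell in the mutant. Of 14 measured myelin protein genes 13 fell and 1 did not pass, where 17.8% of all genes tested fell. Their median change was -2.58 (control -2.87) beside 0.00 for all genes tested. For only 7 of the 14 the interval of the difference between the genotypes lay within 2-fold. Ncmap, a small membrane protein found in the noncompact myelin, read 12.91 and 13.15 in mutant uncut nerve and 6.46 and 5.95 in mutant cut nerve. Both cut arrays lay far below both uncut arrays, an order seen for 35.2% of all genes tested, and the change was a 113-fold fall (log2 -6.83, SE 0.17, limma adjusted p = 2.5e-06). Smco3, another membrane protein of the list, fell by 4.90 on the log2 scale. Cldn19, a tight junction protein of the myelin sheath, went from 9.26 and 9.67 to 5.81 and 5.65 (log2 -3.74). Mag, an adhesion protein of the inner myelin surface, fell by 3.28 on the log2 scale, and Pmp2, a fatty acid carrier of peripheral myelin, by 3.35. Among the genes of the dystroglycan complex that anchors the outside of the sheath, 6 of 11 fell, led by Drp2, which went from 12.59 and 12.66 to 7.40 and 6.99 (log2 -5.43, control -5.43, interval of the difference -0.50 to 0.52). In bulk tissue, fewer cells of a type and less RNA per cell cannot be told apart. Counts of this and other lists are descriptions, since the lists were chosen with earlier results known.

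For some myelin genes the measured fall was smaller in the mutant, but the difference did not pass. Mbp, myelin basic protein, read 14.43 and 14.43 in mutant uncut and 13.23 and 12.94 in mutant cut nerve, a change of -1.35 against -2.38 in control (difference 1.04, interval 0.60 to 1.47, limma adjusted p = 0.12). Gjb1, the gap junction protein of myelin, changed by -1.24 against -2.20 (difference 0.96, interval 0.60 to 1.32, limma adjusted p = 0.084). Pmp22, a structural protein of compact myelin, changed by -2.29 against -2.83 (interval of the difference -0.06 to 1.15). These 3 genes were chosen after their values were seen. The myelin list member whose difference was called was Cdh1, the adherens junction protein E-cadherin, which is described with the other called genes.

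Several of the genes that fell furthest stood in no list. Ddn, a cytoskeletal protein also found in dendrites, read 11.31 and 11.70 in mutant uncut and 6.04 and 5.94 in mutant cut nerve (log2 -5.52, limma). Dusp15, a phosphatase, changed by -4.71, Kif5c, a kinesin motor, by -4.13, Adcy1, an adenylate cyclase, by -4.01, Col23a1, a membrane collagen, by -3.77 and Slc6a15, an amino acid carrier, by -3.76. Fam178b and Vat1l fell by 4.73 and 4.08 on the log2 scale. Pdzph1 and Cnmd, which changed by -4.43 and -4.46, ended below the 25th percentile of their arrays in cut nerve, so these sizes are lower bounds. Both cut arrays lay below both uncut arrays in each of these genes. That order was a condition of their choice and was seen for 35.2% of all genes tested.

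The enzymes that make myelin lipids fell as well. For cholesterol synthesis 17 of 19 measured genes fell and 2 did not pass, with a median change of -2.10 (control -1.90), and for 18 of the 19 the interval of the difference lay within 2-fold. Lss, which closes the sterol ring, went from 8.75 and 9.04 in mutant uncut nerve to 5.54 and 5.42 in mutant cut nerve (log2 -3.42, limma adjusted p = 8e-06). Its second probe set fell by only 0.90 on the log2 scale. Idi1, an isomerase of the isoprenoid steps, fell by 3.28, and the epoxidase Sqle by 2.55, on the log2 scale. Hmgcs1, the synthase that feeds HMG-CoA reductase, went from 13.16 and 13.60 to 10.81 and 10.86 (log2 -2.55, SE 0.15, limma adjusted p = 2.5e-05). The uncut and cut arrays of these genes did not overlap. Srebf2, the master regulator of the pathway, fell by 1.58 on the log2 scale. The promoter window of Hmgcs1 is shown because it was the single window of the cholesterol list (1 of 19, 5.26%, against 1.11% of 12484 windows of genes tested) to hold the sterol regulatory element TCACNCCAC, the binding sequence of the SREBP factors, searched on both strands. The element is not particular to this list: it occurred in 2 of 27 windows of the lysosomal list (7.41%) and 1 of 24 of the DNA replication list (4.17%). It occurred in 0 windows of the mitosis, proton pump, AP-1 and proteasome lists. The window of Hmgcs1 is RefSeq sequence of GRCm38.p6 at chr13:119690101-119690400, plus strand, 300 bases that end shortly after the gene's start, with the match in capitals.
Hmgcs1: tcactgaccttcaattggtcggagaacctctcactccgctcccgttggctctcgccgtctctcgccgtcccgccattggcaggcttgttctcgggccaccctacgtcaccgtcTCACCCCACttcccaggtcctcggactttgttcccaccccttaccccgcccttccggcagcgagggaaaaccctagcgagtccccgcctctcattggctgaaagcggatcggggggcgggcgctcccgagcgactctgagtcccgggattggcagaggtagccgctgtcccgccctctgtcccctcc

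Enzymes of myelin sphingolipids and of fatty acid synthesis moved with them. Fa2h, a fatty acid hydroxylase needed for myelin galactolipids, went from 12.01 and 12.35 to 7.01 and 6.59 (log2 -5.38, a 41.7-fold fall), and Ugt8a, which makes galactosylceramide, fell by 3.33 on the log2 scale. In all 9 of 15 sphingolipid genes fell (60%, against 17.8% of all genes tested). Another 2 rose (13.3%, against 18.1%), the glucosylceramide synthase Ugcg by 1.43 and the glycolipid carrier Gltp by 0.80. For 8 of 13 genes of fatty acid synthesis the interval of the difference lay within 2-fold. Of these 13 genes 2 did not pass and 11 fell, among them Acss2 (-2.59) and Me1 (-1.81), which supply acetyl-CoA and NADPH. That count dropped to 6 on leaving out mutant cut replicate 2, and to 5 on leaving out mutant uncut replicate 2. Fat cells use the same enzymes, and 7 of 11 adipocyte markers fell in these arrays, with a mean level of 11.15 to 11.52 in mutant uncut and 9.57 to 10.34 in mutant cut nerve. The adipocyte count was 10 without mutant cut replicate 1 or either control cut replicate, 3 without mutant cut replicate 2, and 4 on leaving out either array of mutant uncut nerve. Their part in the fall was not tested.

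The transcription factors of myelination changed unevenly. Egr2, the central activator of myelin genes, went from 11.59 and 11.60 in mutant uncut nerve to 9.19 and 9.28 in mutant cut nerve (log2 -2.36, SE 0.09, limma adjusted p = 4.6e-06), against -2.76 in control (difference 0.40, interval 0.10 to 0.69, adjusted p = 0.52). Pou3f1, the factor of the promyelinating stage, rose by 1.17. Of the 12 measured factors 3 rose (25%, near the 18.1% of all genes tested) and 3 fell (25%, near the 17.8% of all genes tested). The other 6 did not pass, and Sox10 stood at -0.19. The count of risers was 1 without mutant cut replicate 2 or mutant uncut replicate 1.

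Genes known to hold myelination back rose in 6 of 12 cases, where 18.1% of all genes tested rose, and 6 did not pass. Sox2, a factor of immature Schwann cells, read 7.94 and 7.81 in mutant uncut and 10.87 and 10.80 in mutant cut nerve, a rise of 2.96 (SE 0.10, limma adjusted p = 2.5e-06) against 2.71 in control (interval of the difference -0.07 to 0.57). The cut arrays lay well above the uncut arrays. Id2, an inhibitor of helix-loop-helix factors, rose by 1.74, and Ednrb, the endothelin B receptor of immature Schwann cells, by 1.17 against 0.22 in control (interval of the difference 0.49 to 1.41, adjusted p = 0.20). The count of 6 was 3 without mutant cut replicate 2. Egr1 and Egr3, immediate early factors, changed by 0.27 and 0.54 and did not pass.

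In a list of 14 genes of the Schwann cell lineage, which mixes markers of denervated and of mature cells, 7 rose (50%, against 18.1% of all genes tested) and 4 fell (28.6%, against 17.8%). The interval of the difference lay within 2-fold for only 6 of the 14. Tnc, the matrix protein tenascin C, read 7.51 and 7.33 in mutant uncut and 11.18 and 11.63 in mutant cut nerve, a rise of 3.99 against 5.55 in control (difference -1.56, interval -2.12 to -1.0, limma adjusted p = 0.073). Olig1, a factor of the glial lineage that is induced in denervated Schwann cells, rose from 4.49 and 4.74 to 8.11 and 8.85 (log2 3.86, control 6.48, difference -2.62, interval -3.48 to -1.76, adjusted p = 0.056). Ngfr, the p75 neurotrophin receptor, rose by 3.39 against 3.93 (interval of the difference -1.11 to 0.04), and its other 2 probe sets by 1.45 and 2.10. Eda2r, a receptor of the TNF family, and Bex1, a small adaptor protein, which stand in no list, rose by 4.46 and 4.34. For Tnc and Olig1 the interval lay below 0, but neither difference passed over all genes.

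Gap43, the growth-associated membrane protein, stood apart within the list. It read 6.37 and 6.14 in mutant uncut and 6.84 and 6.80 in mutant cut nerve, a change of 0.57 (interval 0.05 to 1.08) that did not pass (limma adjusted p = 0.082), while in control it went from 6.36 and 6.19 to 9.20 and 8.46. The difference was -1.99 (interval -2.71 to -1.26, adjusted p = 0.078). Genes of the myelinating and mature Schwann cell in the same list fell: the ligand Dhh by 1.44, the sodium channel Scn7a by 1.59 and the calcium-binding protein S100b by 1.04, on the log2 scale.

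**Figure D2:**
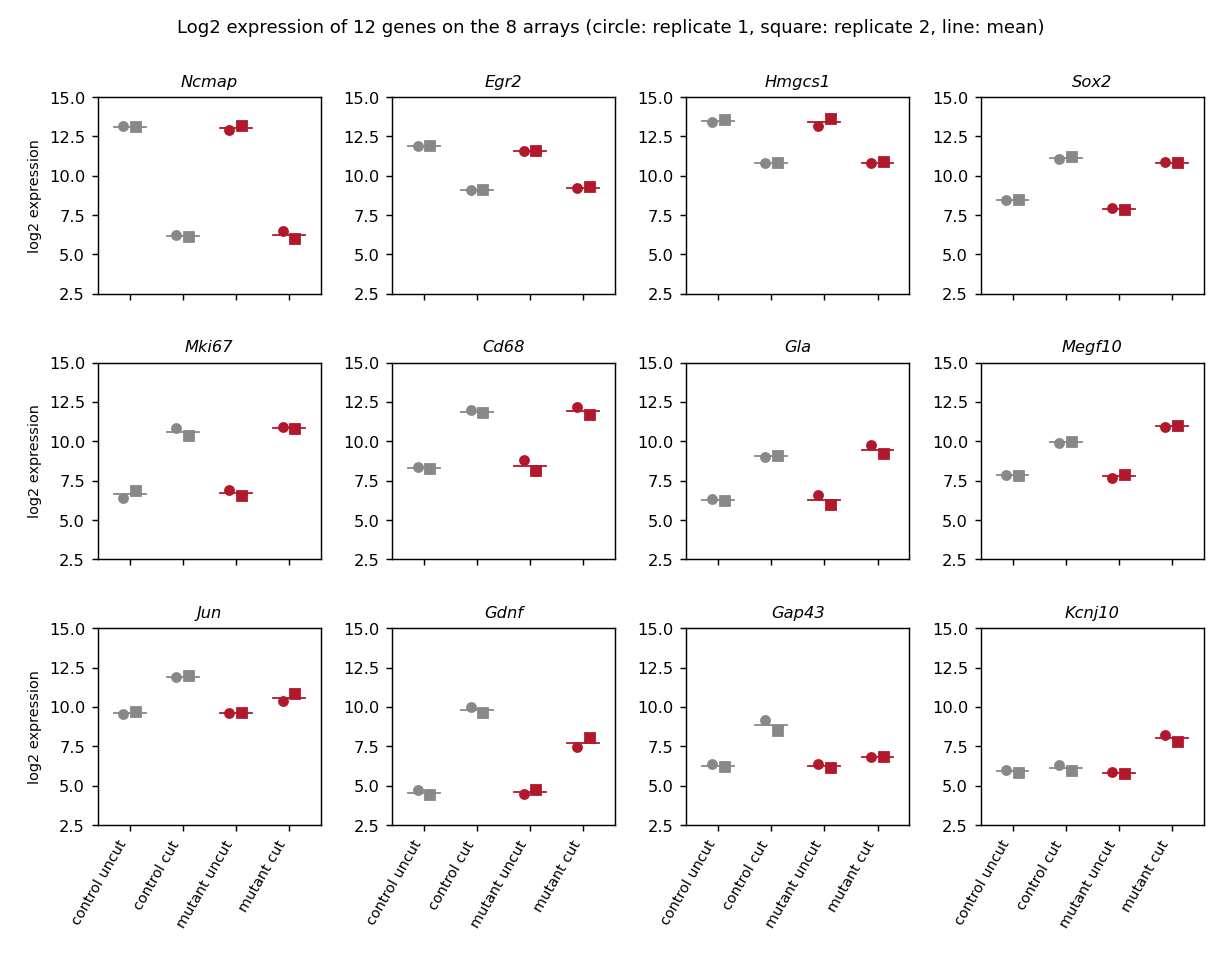
Log2 expression of 12 genes on each of the 8 arrays, in control (grey) and c-Jun mutant (red) nerve. Circles are replicate 1, squares replicate 2 and lines the mean of a group. Ncmap, Sox2, Mki67 and Cd68 lie close together in mutant and control, while Gdnf reached 7.48 and 8.00 in mutant cut nerve against 9.97 and 9.59 in control, Gap43 reached 6.84 and 6.80 against 9.20 and 8.46, and Kcnj10 reached 8.24 and 7.79 against 6.29 and 5.95.

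The other AP-1 genes were not silent in the mutant. Of 15 AP-1 and stress factors 6 rose (40%, against 18.1% of all genes tested) and 9 did not pass. Their median change was 0.46 (control 0.77). Fos, the classic partner of c-Jun, read 11.03 and 10.89 in mutant uncut and 12.21 and 12.21 in mutant cut nerve (log2 1.25, limma adjusted p = 0.00014), against 1.54 in control (interval of the difference -0.65 to 0.06). Junb rose by 1.09 (control 0.95, interval -0.43 to 0.70). Atf3, a stress factor that pairs with c-Jun, rose from 8.12 and 9.27 to 10.99 and 10.71 (log2 2.16, control 3.43, interval -2.49 to -0.07, adjusted p of the difference 0.76). Jund and Atf4 changed by 0.06 and 0.07. For 12 of the 15 genes the interval of the difference lay within 2-fold.

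Among secreted signals for axons and Schwann cells more genes rose than fell. Of 19 measured trophic ligands 9 rose (47.4%, against 18.1% of all genes tested), with a median change of 0.48 (control 0.77). Another 4 fell (21.1%, near the 17.8% of all genes tested) and 6 did not pass. For 11 of the 19 ligands the interval of the difference lay within 2-fold. Gdnf, a survival factor for motor neurons, went from 4.50 and 4.74 in mutant uncut to 7.48 and 8.00 in mutant cut nerve, a rise of 3.12 (SE 0.21, limma adjusted p = 4.5e-05) against 5.23 in control (difference -2.11, interval -2.80 to -1.41, adjusted p = 0.056). Fgf5, a fibroblast growth factor, went from 4.46 and 4.97 to 7.05 and 7.47 (log2 2.55, control 4.41, difference -1.86, adjusted p = 0.073). Uncut nerve of both genotypes lay below the 25th percentile of its arrays for both genes, so neither rises nor differences are exact. The arrays of both genes were clearly separated by injury, but in cut nerve both stayed below every control cut array. Btc, the EGF family ligand betacellulin, is the member whose difference was called and is given below. The EGF receptor ligand Tgfa fell by 2.45 against 0.98 in control, on the log2 scale (difference -1.46, adjusted p = 0.070), although its second probe set changed by -0.31.

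Other ligands rose with intervals of the difference that included 0 or came near it. Ptn, the heparin-binding factor pleiotrophin, rose by 1.24 (control 0.90), Hgf, the ligand of the Met receptor, by 1.20 (control 0.64) and Clcf1, a cytokine of the CNTF receptor, by 0.99 (control 1.41). Bdnf changed by 0.03 and Lif by 0.32, neither of which passed, against 0.62 and 1.26 in control (intervals of the difference -0.96 to -0.21 and -1.47 to -0.41). The count of 4 ligands that fell was 2 without mutant cut replicate 2 or mutant uncut replicate 2. Among 21 receptors 4 rose (19%, near the 18.1% of all genes tested) and 7 fell (33.3%, against 17.8%): Gfra1, the co-receptor of Gdnf, rose by 1.53 (control 1.58, interval of the difference -0.39 to 0.29), Met by 1.25 (control 2.12, limma adjusted p of the difference 0.070), and Ntrk3, the neurotrophin 3 receptor, fell by 1.66 on the log2 scale.

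Adhesion and guidance genes went both ways, with 8 of 25 risen (32%, against 18.1% of all genes tested) and 9 fallen (36%, against 17.8%). Epha5, an ephrin receptor, rose from 5.65 and 6.15 to 9.31 and 9.47 (log2 3.49, control 4.19), Nrcam, a cell adhesion molecule of the node of Ranvier, by 1.33 (control 2.33), and Cadm1 by 1.26. Sema5a, a semaphorin, fell from 11.73 and 12.19 to 8.72 and 9.02 (log2 -3.09), and Cadm3, a partner of the axon in the internode, fell by 2.5 on the log2 scale. Chl1, an adhesion molecule related to L1, rose by 1.0 in the mutant and stood at -0.32 in control (difference 1.32, interval 0.85 to 1.79, limma adjusted p = 0.073). Of 14 glial channels and transporters 9 fell (64.3%, against 17.8% of all genes tested), with Kcnk1 (-5.84) and Kcnmb4 (-1.76) among them. Another 2 rose (14.3%, against 18.1%), a count that was lower without mutant cut replicate 1 or mutant uncut replicate 1. Kcnj10, a glial potassium channel, was one of these risers and is described with the genes whose difference was called. For only 5 of the 14 channels and transporters the interval of the difference lay within 2-fold.

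Cell division genes rose as a block. Of 27 measured mitosis genes 27 rose, with a median change of 2.61 (control 2.56), and of 24 DNA replication genes 23 rose, with a median of 0.97 (control 0.83). Mki67, the proliferation marker, read 6.93 and 6.55 in mutant uncut and 10.90 and 10.79 in mutant cut nerve, a 17.3-fold rise (log2 4.11, SE 0.22, limma adjusted p = 1.6e-05) against 3.96 in control (interval of the difference -0.56 to 0.85). Cdk1, the kinase that starts mitosis, went from 6.57 and 6.51 to 10.08 and 9.78 (log2 3.39), and Top2a, a topoisomerase of dividing cells, from 6.21 and 6.11 to 10.23 and 10.12 (log2 4.02). Rrm2, a subunit of ribonucleotide reductase, rose by 4.51, and Pbk, a mitotic kinase, by 4.24. In these genes every cut array lay above every uncut array, as was so for 35.8% of all genes tested. Ccnd1, the cyclin that carries cells through G1, rose by 2.5 (control 2.4, interval of the difference -0.31 to 0.51). Of 17 G1 genes 8 rose (47.1%, against 18.1% of all genes tested). Another 4 fell (23.5%, near the 17.8% of all genes tested). The count that fell was lower without mutant cut replicate 2 or either mutant uncut replicate. Which cells divided cannot be read from bulk RNA.

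The promoters of the mitosis genes share a pattern of short sequences. CCAAT boxes and the CHR element TTTGAA, a pairing known from cell cycle promoters, were searched on both strands in the 23 windows of the 22 list genes that RefSeq's table holds. Both occurred in 17 of these windows (73.9%), against 562 of the 12484 windows of genes tested (4.5%) and 6.92% of all 32544 windows. The E2F sequence TTTNNCGC occurred in 9 of the 24 windows of the DNA replication list (37.5%, against 7.97% of windows of genes tested). The window of Mki67 is shown as an example that holds both, from RefSeq's GRCm38.p6 at chr7:135716330-135716629, minus strand, with CCAAT and TTTGAA in capitals, and ATTGG where the box lies on the other strand. A match describes these letters and is not a measured binding site.
Mki67: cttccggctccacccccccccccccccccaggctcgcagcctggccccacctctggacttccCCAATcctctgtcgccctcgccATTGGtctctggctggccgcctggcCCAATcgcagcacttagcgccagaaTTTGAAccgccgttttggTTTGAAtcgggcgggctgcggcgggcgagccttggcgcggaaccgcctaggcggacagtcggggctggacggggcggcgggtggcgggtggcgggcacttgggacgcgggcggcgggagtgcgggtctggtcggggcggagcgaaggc

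Genes of the lysosome, where engulfed myelin is broken down, rose too. Of 28 measured hydrolases and membrane proteins 22 rose and 1 fell, with a median change of 1.01 (control 1.09), and for 27 of the 28 the interval of the difference lay within 2-fold. Gla, alpha-galactosidase A, read 6.59 and 5.98 in mutant uncut and 9.76 and 9.20 in mutant cut nerve (log2 3.20, SE 0.24, limma adjusted p = 6.5e-05). The protease Lgmn went from 9.78 and 9.65 to 12.31 and 11.90 (log2 2.39), and Ctss, a cathepsin of macrophages, from 10.77 and 10.47 to 13.50 and 13.46 (log2 2.86). The count of 1 that fell, the sphingomyelinase Smpd1, was 0 without mutant cut replicate 2 or mutant uncut replicate 2. The proton pump followed with 11 of 15 subunits risen (7 without mutant cut replicate 2): Atp6v0d2, a subunit of macrophages and osteoclasts, rose from 5.50 and 5.88 to 11.21 and 11.10, a 44.1-fold rise, and the common subunit Atp6v1a by 1.17.

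The CLEAR sequence TCACGTG, bound by the lysosomal regulators of the TFEB family, occurred in 7 of 27 windows of the lysosomal list (25.9%) and 4 of 13 of the proton pump list (30.8%), against 5.78% of windows of genes tested, both strands searched. The letters are not particular to these lists. They occurred in 3 of 19 windows of the cholesterol list (15.8%), which fell, and 3 of 15 of the AP-1 and stress list (20%). The mitosis list held them in 4.35% of windows, DNA replication in 4.17% and the proteasome in 0%. Among windows of genes that rose at least 2-fold in the mutant the share was 4.34%. Tfeb itself changed by 0.07. The window of Gla is shown because Gla changed most among the lysosomal genes whose window holds the sequence. This window holds 2 copies. It is RefSeq's of GRCm38.p6 at chrX:134600956-134601255, minus strand, with the matches of either strand in capitals.
Gla: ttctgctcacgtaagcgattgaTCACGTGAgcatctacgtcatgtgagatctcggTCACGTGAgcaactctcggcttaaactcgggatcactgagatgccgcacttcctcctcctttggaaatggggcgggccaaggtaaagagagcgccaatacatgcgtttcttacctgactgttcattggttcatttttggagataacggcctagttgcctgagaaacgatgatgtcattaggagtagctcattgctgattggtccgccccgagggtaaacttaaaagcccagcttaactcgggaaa

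Macrophage genes rose in the same arrays, and their part in the lysosomal rise was not tested. Of 25 macrophage identity genes 19 rose and 6 did not pass, with a median change of 1.5 (control 1.67). Cd68, a lysosomal membrane protein of macrophages, read 8.79 and 8.11 in mutant uncut and 12.21 and 11.65 in mutant cut nerve (log2 3.48, limma adjusted p = 5.6e-05), against 3.57 in control (interval of the difference -0.90 to 0.73). Mpeg1, a pore-forming protein of macrophages, went from 9.74 and 9.65 to 13.01 and 13.02 (log2 3.32), and Tyrobp, the signalling adaptor of Trem2, from 10.11 and 9.65 to 12.62 and 12.15 (log2 2.51). The resident macrophage gene Siglec1 changed by 0.07 and Cd163 by -0.50, and neither passed.

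Genes of macrophages loaded with lipid went both ways. Gpnmb, a glycoprotein of such cells, rose from 9.0 and 8.69 to 13.50 and 13.28 (log2 4.55, control 4.33), the lipid receptor Trem2 from 6.83 and 6.83 to 10.39 and 10.08 (log2 3.40), and the cholesterol exporter Abca1 by 2.18. In all 9 of 15 rose (60%, against 18.1% of all genes tested) and 5 fell (33.3%, against 17.8%). The count that fell was lower without mutant cut replicate 2 or either mutant uncut replicate. Fallers such as Pparg (-1.39) are also expressed by fat cells. Among engulfment genes 8 of 22 rose (36.4%, against 18.1% of all genes tested). Another 4 fell (18.2%, near the 17.8% of all genes tested), or 2 without mutant cut replicate 2 or mutant uncut replicate 2. Megf10, an engulfment receptor of glia, rose from 7.67 and 7.89 to 10.94 and 10.96, and in control from 7.85 and 7.82 to 9.90 and 9.98 (log2 3.17 against 2.10, difference 1.07, interval 0.73 to 1.41, limma adjusted p = 0.056). Every mutant cut array lay above every control cut array.

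Autophagy genes mostly did not pass. Of 25 measured genes 2 rose (8%, against 18.1% of all genes tested), 2 fell (8%, against 17.8%) and 21 did not pass. Their median change was 0.07 (control 0.11), and for 24 the interval of the difference lay within 2-fold. Gabarapl1, a member of the ATG8 family, fell by 1.03 on the log2 scale. With mutant cut replicate 2 left out 0 rose by limma and with mutant uncut replicate 1 left out 1 did, and the count of 2 that fell was 1 without any of the control arrays, either mutant cut replicate or mutant uncut replicate 1. The proteasome, the other main route of protein breakdown, rose evenly: 20 of 23 subunits rose with a median of 0.57 (control 0.51), for example Psmb5, a catalytic subunit, from 10.78 and 10.68 to 11.29 and 11.49. Those changes are small, and the count dropped to 10 when mutant cut replicate 2 was left out and to 11 when mutant uncut replicate 2 was.

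**Figure D3:**
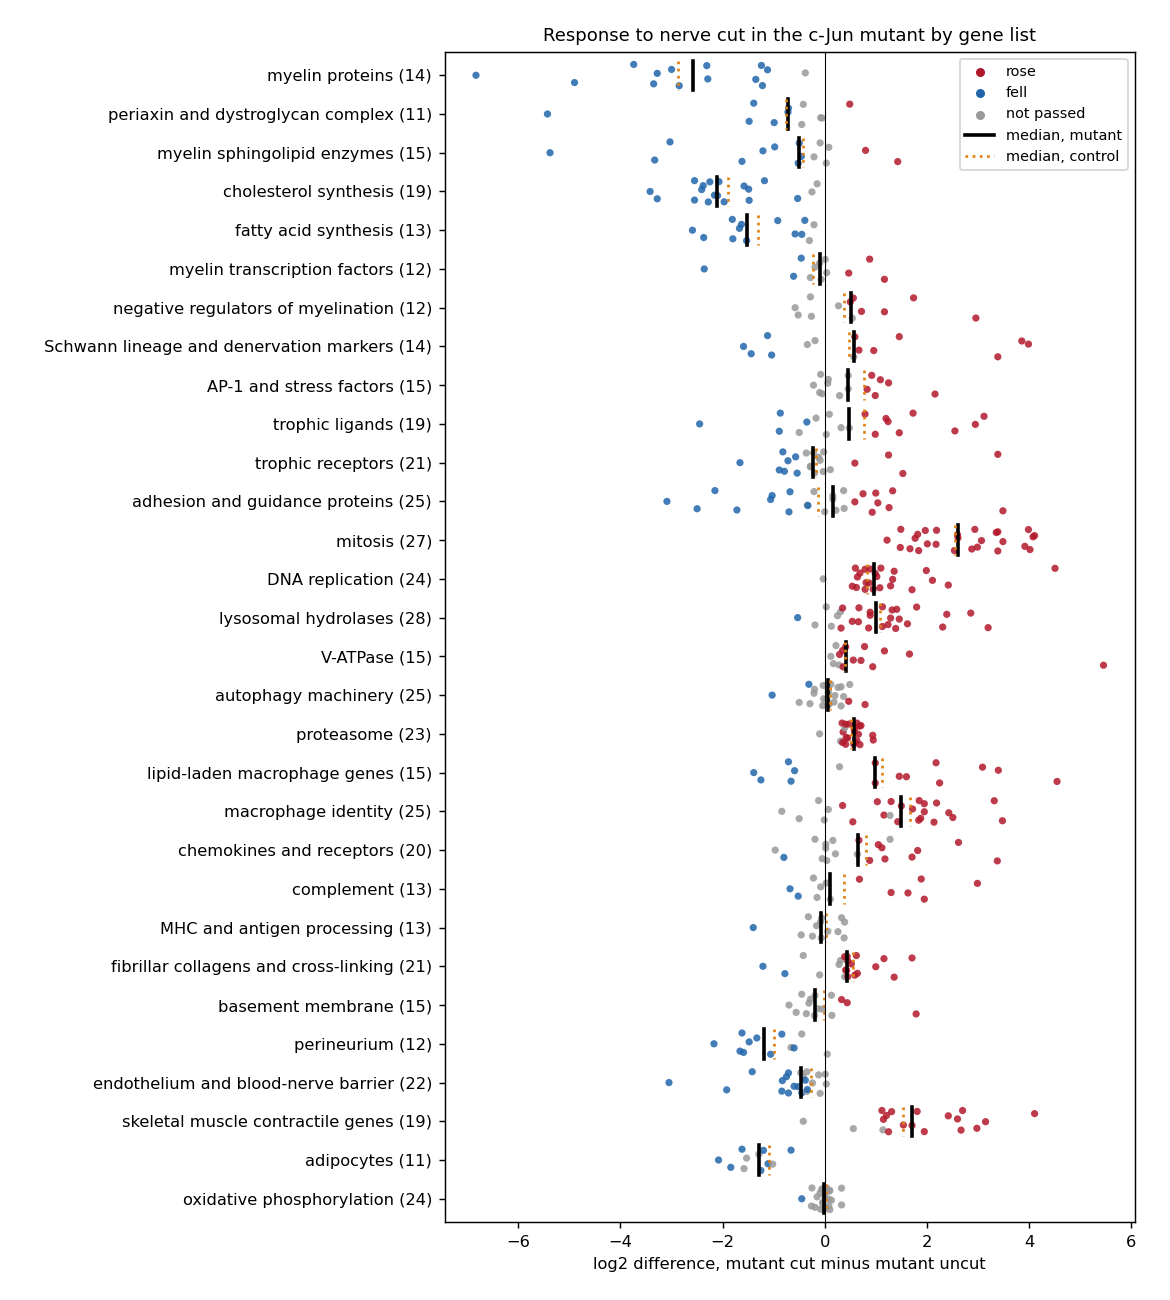
Log2 difference between mutant cut and mutant uncut nerve of each measured gene (points) of 30 gene lists, with the number measured in brackets. Red genes rose and blue genes fell by limma's adjusted p, grey genes did not pass, and bars mark the median in the mutant (black) and in control (orange, dotted). Myelin and cholesterol genes lie left of 0 (medians -2.58 and -2.10), mitosis genes right of it (2.61), and autophagy and oxidative phosphorylation genes around it (0.07 and -0.01).

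Among immune signals, 9 of 20 chemokines and their receptors rose in the mutant (45%, against 18.1% of all genes tested). Ccl8, an attractant of monocytes, read 8.74 and 8.54 in mutant uncut and 12.13 and 11.92 in mutant cut nerve (log2 3.38, control 3.96). Ccl2 rose by 1.82 (control 2.19) and the receptor Cxcr4 by 2.62 (control 2.4). For 11 of the 20 the interval of the difference lay within 2-fold. Of 13 complement genes 6 rose (46.2%, against 18.1% of all genes tested). Among them were the receptor C3ar1 (2.99) and the 3 chains of C1q, C1qa (1.63), C1qb (1.95) and C1qc (1.89). Another 2 fell (15.4%, near the 17.8% of all genes tested), a count that was lower without mutant cut replicate 2 or either mutant uncut replicate. Of 13 genes of MHC and antigen processing 12 did not pass, and H2-DMa, which loads peptides on class II molecules, fell by 1.40 on the log2 scale. Gzmb, a protease of killer cells, rose from 5.72 and 6.07 to 9.24 and 10.33 (log2 3.89), against 6.31 in control (difference -2.42, interval -3.47 to -1.37, limma adjusted p = 0.13), and the natural killer receptor Klrd1 by 1.46. Gzmb and Klrd1 were the 2 risers of 6 measured genes of T, B and natural killer cells (33.3%, against 18.1% of all genes tested). The other 4 did not pass, among them the killer cell gene Nkg7 (0.11), the T cell gene Cd3e (-0.03) and Cd4 (0.21). Prf1 and Ncr1, also of killer cells, did not pass the signal filter. Klrb1a, a killer cell receptor gene outside this list that is given below, changed by -0.81.

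Connective tissue genes were remodelled in the mutant. Of 21 genes of fibrillar collagens and their cross-linking 14 rose (66.7%, against 18.1% of all genes tested) and 2 fell (9.52%, against 17.8%). Their median change was 0.44 (control 0.55), and for 21 the interval of the difference lay within 2-fold. Col5a2 rose from 11.55 and 11.66 to 13.37 and 13.26 (log2 1.71, limma adjusted p = 2.1e-05) and Col1a1, the main chain of type I collagen, from 11.81 and 12.07 to 13.36 and 13.23 (log2 1.36), while the cross-linking enzyme Lox fell by 1.21 on the log2 scale. The count of 14 dropped to 6 without mutant cut replicate 1, to 9 without replicate 2 of that group, and to 8 when mutant uncut replicate 1 was left out. Of 15 basement membrane genes 3 rose (20%, near the 18.1% of all genes tested) and 12 did not pass. The count that rose was lower without any single mutant array or either control cut replicate. Col18a1, the chain that holds endostatin, rose by 1.79 (control 2.62). Cthrc1, a secreted protein of matrix-forming fibroblasts, rose from 6.69 and 6.72 to 11.17 and 10.82 (log2 4.29, control 5.16). The matrix protein Postn rose by 1.72 (control 1.66) and Thbs2 by 2.36 (control 1.94).

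Of 17 matrix proteases and their inhibitors 9 rose (52.9%, against 18.1% of all genes tested), with a median of 0.56 (control 1.09). The 3 that fell (17.6%) are near the 17.8% of all genes tested. For only 7 of the 17 the interval of the difference lay within 2-fold. Timp1, an inhibitor of metalloproteinases, read 7.57 and 7.40 in mutant uncut and 10.74 and 10.45 in mutant cut nerve (log2 3.10, control 3.68), and Mmp12, the macrophage elastase, 5.34 and 6.33 and then 8.88 and 9.60 (log2 3.40, control 4.57). Mmp14, a membrane-bound protease, rose by 1.69 (control 1.79). Mmp17 rose by 1.09 against 2.4 (difference -1.30, interval -1.95 to -0.66, limma adjusted p = 0.20), and Adamts5, an aggrecanase, fell by 1.09 against 0.21 in control, on the log2 scale (difference -0.87, adjusted p = 0.21). Adamts1, whose difference was called, is given below. Fibroblast markers went both ways. Among 14 measured 3 rose (21.4%, near the 18.1% of all genes tested) and 5 fell (35.7%, against 17.8%). Their median change was -0.34 (control -0.22), and the count that fell moved when single mutant arrays were left out. Mfap5 changed by -1.68, the lowest of them. The highest, Thy1, a surface protein of fibroblasts and neurons, rose by 1.47 against 2.51 (difference -1.04, interval -1.37 to -0.72, adjusted p = 0.054).

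The nerve's barriers lost transcripts. Of 12 perineurial genes 9 fell and 3 did not pass, with a median change of -1.19 (control -1.0). Cldn1, the claudin of perineurial tight junctions, went from 10.79 and 10.76 to 9.84 and 9.60 (log2 -1.06, limma adjusted p = 0.00044), and Perp, a junction protein of epithelium-like layers, from 9.63 and 9.60 to 8.56 and 8.00 (log2 -1.33). Of 22 genes of endothelium and blood-nerve barrier 13 fell (7 without mutant cut replicate 1 or mutant uncut replicate 2). Those with the largest falls were transporters: Mfsd2a, which carries lipids and restrains transcytosis, went from 9.63 and 9.90 to 6.85 and 6.58 (log2 -3.05), the amino acid carrier Slc7a5 from 9.37 and 9.48 to 7.5 and 7.52 (log2 -1.92), and the efflux pump Abcb1a fell by 1.42 on the log2 scale. The general endothelial markers Pecam1 and Cdh5 stood at -0.12 and -0.35 and did not pass.

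Axonal transcript is found in nerve at low levels, and Nefl, the light neurofilament, fell from 6.84 and 7.32 to 3.97 and 3.75 in the mutant (log2 -3.22, control -3.22, interval of the difference -0.66 to 0.65). Its cut arrays lay below the 25th percentile of their arrays (4.95 to 5.01 over all arrays), where a difference is best read as a lower bound. Prph, the peripheral intermediate filament, fell by 1.5 on the log2 scale. Tubb3, a tubulin of neurons, rose by 2.04 (control 3.11), and Uchl1, a ubiquitin hydrolase of neurons, stood at 0.13 in the mutant (interval -0.23 to 0.49) and 1.31 in control (difference -1.18, interval -1.68 to -0.67, limma adjusted p = 0.13). Bub1, a kinase of the mitotic checkpoint, and Wif1, a Wnt inhibitor, which rose by 3.92 and 5.14, lay below that percentile in uncut nerve of both genotypes, as did Olig1, Gdnf and Fgf5. Their rises are lower bounds too, and the differences between genotypes given for Olig1, Gdnf and Fgf5 are not exact.

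Both of the genes that rose most in the mutant, Ankrd1 and Myf6, were muscle genes. Ankrd1, a stress protein of muscle, read 5.93 and 5.46 in mutant uncut and 11.20 and 12.67 in mutant cut nerve (log2 6.24, SE 0.85, limma adjusted p = 0.0012), against 5.84 in control (interval of the difference -2.4 to 3.19). Myf6, a muscle-specific transcription factor, rose by 5.47, Chrna1, the acetylcholine receptor subunit that denervated fibres spread, by 5.14, and Trim63, a ubiquitin ligase of muscle wasting, by 4.92. Ppp1r27, Lmod2, which caps thin filaments, and Sln, a regulator of the calcium pump, rose by 5.43, 4.84 and 5.26. Of 16 genes of denervated or immature muscle 12 rose and 4 did not pass, and of 19 contractile genes 16 rose (7 without mutant cut replicate 2 or mutant uncut replicate 2). The contractile list's mean level was 10.52 to 11.41 in mutant uncut and 12.55 to 13.06 in mutant cut nerve, and 10.80 to 11.32 and 12.28 to 12.72 in control. Muscle fibres lie outside the nerve, and how much of each segment was muscle was not tested.

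Several muscle and gland genes differed more between the mutant cut pools than between injury states. Myl2, a myosin light chain of slow fibres, read 11.35 in mutant cut replicate 1 and 5.67 in replicate 2, and Myh7, the slow myosin heavy chain, 10.16 and 6.31, whereas Ankrd1 was higher in replicate 2. Milk protein genes went the opposite way: Csn2 read 3.69 and 9.15 in mutant cut nerve and 13.01 and 10.33 in mutant uncut nerve, so that its change of -5.25 did not pass (limma adjusted p = 0.071). Krt18, a keratin of simple epithelium, rose by 1.61 in the mutant against 4.91 in control (difference -3.30, interval -4.38 to -2.22, adjusted p = 0.056), from 8.79 and 9.31 in mutant uncut against 6.05 and 5.75 in control uncut nerve. Mean levels of the 10 glandular markers were 9.22 to 9.45 in mutant uncut, 7.00 to 8.64 in mutant cut, 6.55 to 6.58 in control uncut and 7.56 to 8.67 in control cut nerve. Myl2, Myh7, Csn2 and the other genes of the replicate plot except Ankrd1 were chosen after their values were seen.

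**Figure D4:**
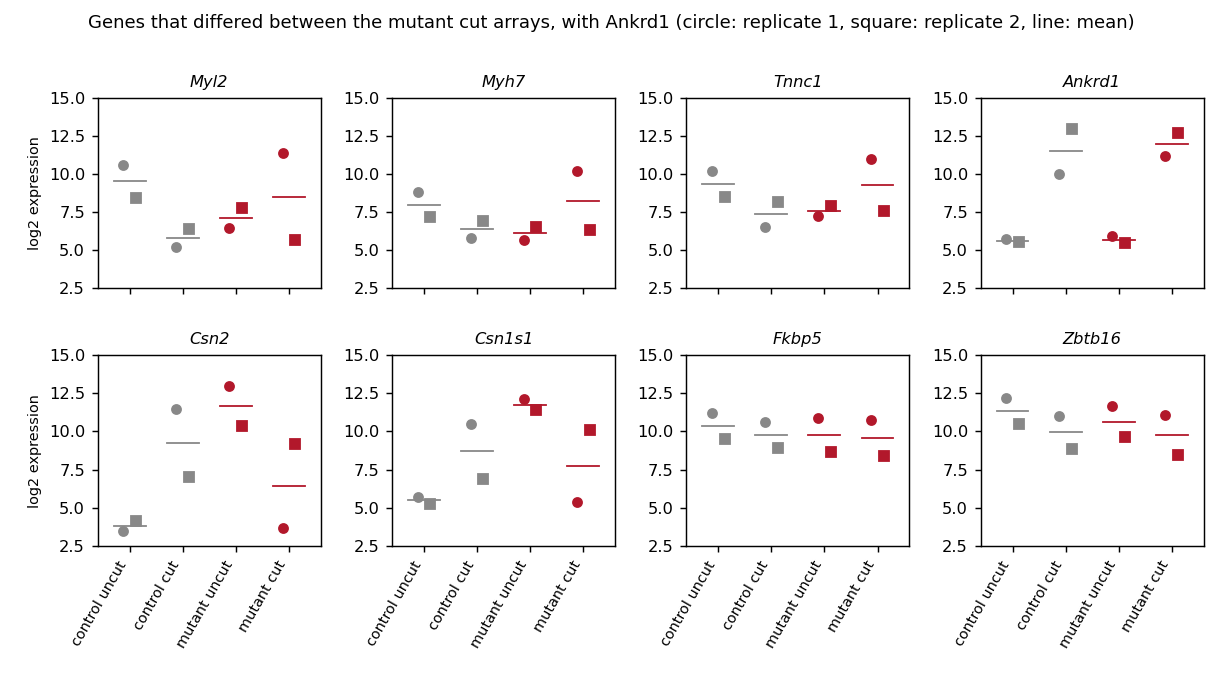
Log2 expression on the 8 arrays of 7 genes that differed widely between the replicate arrays of mutant cut nerve, with Ankrd1 for comparison (circle: replicate 1, square: replicate 2, line: mean). The slow muscle genes Myl2, Myh7 and Tnnc1 are high in mutant cut replicate 1 and low in replicate 2, Csn2 and Csn1s1 are low and high, and Fkbp5 and Zbtb16 are higher in replicate 1 in all 4 groups.

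Respiratory chain genes moved little. Of 24 genes of oxidative phosphorylation 23 did not pass, with a median change of -0.01, and the complex I subunit Ndufs1 read 10.40 and 10.31 in mutant uncut and 10.33 and 10.36 in mutant cut nerve (log2 -0.01, 95% interval -0.23 to 0.21). For 24 of the 24 the interval of the difference from control lay within 2-fold. Glycolysis was split, with 5 of 18 risen (27.8%, against 18.1% of all genes tested) and 8 fallen (44.4%, against 17.8%). Hk2 and Hk3, which trap glucose, rose by 0.86 and 0.95. The glucose carrier Slc2a1 fell by 0.84, the lactate dehydrogenase subunit Ldhb by 1.43 and the lactate carrier Slc16a1 by 0.77, on the log2 scale. Phgdh, the first enzyme of serine synthesis, fell by 1.18 on the log2 scale (control -1.46). Of 20 genes of ER stress and chaperones 6 rose (30%, against 18.1% of all genes tested) and 14 did not pass. The count that rose was lower with any single array left out, most of all mutant cut replicate 1. Hspa5 rose by 0.32 and Sdf2l1 by 0.98 (limma).

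The test of the difference called 8 genes higher in the mutant response. Cdh1 fell in both genotypes but less in the mutant: it read 11.34 and 11.35 in mutant uncut and 8.43 and 8.27 in mutant cut nerve, against 6.23 and 5.58 in control cut nerve (difference 2.65, interval 2.00 to 3.30, limma adjusted p = 0.036). Lrrtm4 and Lrrn3, neuronal proteins with leucine-rich repeats, changed by -1.64 and -0.69 in the mutant against -4.04 and -2.74 in control. Lrrtm4 read 4.17 and 3.66 in control cut nerve, below the 25th percentile of those arrays, so its fall in control and the difference are lower bounds in size. The palmitoyl transferase Zdhhc2 and the killer cell receptor gene Klrb1a also fell less, with differences of 1.19 and 1.26. Kcnj10 read 5.89 and 5.72 in mutant uncut and 8.24 and 7.79 in mutant cut nerve, and rose by 2.21, while in control it read 5.98 and 5.83 and then 6.29 and 5.95 (difference 2.00, interval 1.41 to 2.58, adjusted p = 0.044). Trpm3, a cation channel, and Adam23, a partner of the LGI proteins, rose in the mutant by 0.77 and 0.70 and fell in control by 0.94 and 1.63 on the log2 scale. Their cut and uncut arrays did not overlap in either genotype. The rise of Adam23 lost its call without mutant cut replicate 1 or either mutant uncut replicate.

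The 12 genes lower in the mutant response all rose in control. Of these 6 rose in both genotypes. Btc went from 6.30 and 5.96 to 8.99 and 9.17 in the mutant and to 10.62 and 10.55 in control cut nerve (difference -1.64, interval -2.08 to -1.19, limma adjusted p = 0.036). Ucn2, a peptide of the corticotropin-releasing family, went from 5.33 and 4.89 to 7.81 and 7.59 in the mutant, against 9.25 and 9.49 in control cut nerve (difference -2.05). For Ucn2 control uncut nerve and mutant uncut replicate 2 lay below the 25th percentile, so this difference is not exact. Rgs8 and Rgs16, which shorten G protein signals, rose by 0.91 and 1.27 against 3.42 and 2.86, Aldh1a3, a retinoic acid synthase, by 1.71 against 2.90, and Arg1, the arginase of alternatively activated macrophages, by 0.87 against 3.08. The rise of Arg1 lost its call without mutant cut replicate 2 or mutant uncut replicate 2. The other 6 did not pass in the mutant. Adamts1, a matrix protease, read 10.17 and 10.23 in mutant uncut and again 10.17 and 10.23 in mutant cut nerve (interval of the change -0.20 to 0.22). In control it rose by 1.14, from 9.61 and 9.68 to 10.79 and 10.78, so the mutant arrays lay above control before the cut and below it after. C1ql2, Syt13 and Pcdh17, proteins of synapses and cell contacts, changed by 0.35, 0.18 and -0.29 against 2.64, 1.83 and 0.89. Uncut arrays of Rgs8 (4.88 to 5.14) and Syt13 (4.98 to 5.20) lay near the 25th percentile (4.95 to 5.01 over all arrays), so their differences are not exact either.

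For Krt8 and Clca3a2, the last of the 12, the uncut arrays of the genotypes also lay apart, and further than for Adamts1. Krt8, the partner keratin of Krt18, read 8.54 and 8.48 in mutant uncut against 5.73 and 6.13 in control uncut nerve, and 8.63 and 9.17 in mutant cut against 9.18 and 9.92 in control cut nerve. Clca3a2, a chloride channel regulator, read 7.35 and 7.68 in mutant uncut and 3.81 and 4.66 in control uncut nerve (difference of the responses -5.66, limma adjusted p = 0.037). These control uncut values lay below the 25th percentile of their arrays, so its rise in control and the difference are lower bounds in size. The mean level of the glandular markers, Krt8 among them, was also higher in mutant uncut than in control uncut nerve, and their part in the difference was not tested. The 20 calls were made at the edge of what 8 arrays allow: leaving out mutant cut replicate 1 or either mutant uncut replicate left 0 calls by limma (758, 703 and 756 genes at an unadjusted p under 0.05), leaving out 1 control array left 1 to 5, and leaving out mutant cut replicate 2 gave 45.

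Sequences bound by AP-1 were looked for in the same promoter windows. The letters TGANTCA occurred in 61 of 738 windows of genes that rose at least 2-fold in the mutant (8.27%), in 49 of 680 of those that fell (7.21%) and in 5.41% of windows of genes tested. For the genes whose difference was called, 13 had windows in the table, and the letters occurred in 1 of their 17 windows (5.88%, that of Clca3a2), a share near that of all genes tested. No match says only that these letters are not in this window of 300 bases, and sites further away were not looked at.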

How the data were processed

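RNA of nerve segments had been hybridised to Affymetrix mouse arrays, 1 array a pool. The deposited values are on the log2 scale, and per the submitters' processing notes the authors made them with RMA in the affy package; the sources used here give no versions, genome build or scan dates. RMA normalizes arrays to 1 another, so values are relative within the set.

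Probe sets were named from GEO's platform annotation: of 45101, 34958 have 1 symbol, 932 several and 9211 none. Probe sets above their array's median on at least 2 arrays were kept (24220), and each gene was read by its kept probe set of highest mean (12093 genes). Cut and uncut nerve were compared within each genotype, and the genotypes by the interaction term, in 1 limma fit (3.58.1, R 4.3.3) over the 8 arrays, with Benjamini-Hochberg adjustment over all genes and a threshold of 0.05; the fit has 4 residual degrees of freedom. Precision is limited by 2 arrays a group. P-values measure the spread between pools.

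The members and the 60 gene lists were chosen with earlier results of these data known. The text names Jun, the 15 called genes that rose most and the 15 that fell most among those whose mutant arrays do not overlap, up to 5 called members of a list in each direction and 3 that did not pass, and the genes whose difference was called. Mbp, Gjb1, Pmp22, Srebf2, Egr3, Ptn, Hgf, Clcf1, Lif, Cdk1, Tfeb, Cd163, Psmb5, Cldn1, Perp, Pecam1, Cdh5 and Hspa5 are named outside that rule, as examples chosen after their values were seen, as are the genes of the replicate plot. Alternatives changed the filter, the probe set rule, the normalization, the moderation, the array weights, the arrays fitted, the fold threshold, the replicate block and single arrays. Promoter windows are RefSeq's of GRCm38.p6, without chromosome 18.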

Additional observations from a re-analysis of the deposited data

Results flagged for a closer look

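For 20 genes the response to nerve cut differed between the mutant and control by limma's interaction test (adjusted p 0.031 to 0.044, each with 2 pools a group). Below, each value is the mutant's log2 response minus that of control. The 8 genes higher in the mutant were Cdh1 (2.65), Lrrtm4 (2.4), Adam23 (2.33), Lrrn3 (2.05), Kcnj10 (2.00), Trpm3 (1.72), Klrb1a (1.26) and Zdhhc2 (1.19). The 12 lower in the mutant were Clca3a2 (-5.66), Krt8 (-3.24), Rgs8 (-2.51), C1ql2 (-2.29), Arg1 (-2.21), Ucn2 (-2.05), Syt13 (-1.65), Btc (-1.64), Rgs16 (-1.59), Aldh1a3 (-1.20), Pcdh17 (-1.18) and Adamts1 (-1.13). For Clca3a2 and Lrrtm4 a control group lay below the 25th percentile of its arrays, so these differences are lower bounds in size. Ucn2, Rgs8 and Syt13 lay below or near that percentile in uncut nerve of both genotypes, so their differences are not exact. With single arrays left out, each kept its sign in all 8 fits but its call in no more than 3 (Cdh1). Arg1, Ucn2 and Pcdh17 lost the call in every one of them, with the highest adjusted p at 0.162, 0.171 and 0.177.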

How the results depend on the processing

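With 2 pools a group, differences of moderate size between the genotypes were beyond reach, and a lone array left in an arm is assumed to vary like the other groups. The mutant response called 2734 to 4260 genes with 1 array left out (1407 to 2141 rose, 1249 to 2119 fell), and that of control 1826 to 2661 that rose and 1376 to 2063 that fell. With each probe set as a unit 7240 were called in the mutant (3617 rose, 3623 fell) and 8441 in control (4345 and 4096), where more features were tested. At least 2-fold, the numbers were 1370 (727 and 643) and 1511 (830 and 681). The interaction called 33 genes without a filter (22 lower in the mutant), 11 above the 75th percentile (4 higher, 7 lower), 33 with a gene's probe sets averaged (21 lower), 20 lower with each array centred on its median, 31 with trended and robust moderation (19 lower), and 0 to 45 with 1 array left out (0 to 22 higher, 0 to 23 lower). The lowest is without mutant cut replicate 1 or either mutant uncut replicate and the highest without mutant cut replicate 2; the cause was not tested. By the mean of their probe sets Fen1 stood at 0.68, Cxcl12 at -0.42, Cd55 at -0.69, Tpm2 at 1.13 and Epcam at -0.97 in the mutant, each against the sign of the probe set used, because the probe sets of these genes differ. Array numbers are shared between the groups, but nothing says that they mark the same mice, and the deviations of same-numbered arrays correlated at 0.15 between mutant cut and uncut nerve, 0.18 between control cut and uncut, 0.24 between the cut groups and 0.14 between the uncut groups. With the replicate block 4979 genes were called in the mutant, 5543 in control and 25 in the interaction.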

Other observations

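Replicate 1 stood above replicate 2 in all 4 groups for Fkbp5 and Zbtb16, genes known to respond to glucocorticoids. Fkbp5 read 10.86 and 8.68 in mutant uncut, 10.74 and 8.38 in mutant cut, 11.19 and 9.48 in control uncut and 10.62 and 8.91 in control cut nerve. Zbtb16 read 11.67 and 9.61, 11.09 and 8.46, 12.20 and 10.49, and 11.03 and 8.87 in the same order. Among arrays of the same number and genotype, the cut array lay below the uncut array in all 4 cases for both genes.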
